A study of Mus musculus with 18 samples.

Results

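The 9 genes described here encode components, a regulator and receptors of the complement system, namely C1qa, C1qb, C1qc, C4b, C3, Cfb, Serping1, C3ar1 and C5ar1. They were selected by symbol, and all 9 were present among the 14987 genes of the colon table and the 15193 genes of the dorsal horn table, 15410 genes in all. All 9 also passed the filter on low counts in both tissues. RNA was sequenced in bulk from the colon and from the dorsal horn of the spinal cord, the region that receives sensory input, of wild-type mice in 3 groups. Mice of the nivolumab group carried bone cancer and received nivolumab, an antibody raised against human PD-1, a receptor that restrains T cells. Mice of the cancer group carried bone cancer and received control IgG, and mice of the sham group had a sham procedure and received control IgG. Each group had 3 libraries per tissue, 18 in all. No source used here gives the tumour cells, mouse strain, age, doses or times. The labels do not say whether the libraries of a group came from separate animals, so the p-values reflect how much these libraries differ within groups, and that spread may be technical.

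Complement is a cascade of proteins that marks cells, debris and microbes for removal. C1q binds its targets and starts the classical pathway, in which C4 and then C3 are cleaved, while factor B drives the alternative pathway that amplifies C3 cleavage. The released peptides C3a and C5a act on receptors of myeloid cells, and in the spinal cord C1q is known mainly as a product of microglia, whereas C3 and C4 are made by several glial and stromal cell types.

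Total counts per library lay between 21855085 and 29071908 in the dorsal horn and between 20896854 and 30803957 in the colon. Values are given in CPM (counts scaled to library size after TMM), in the order of replicates 1, 2 and 3, and log2 fold changes are of the first group named over the second. The labelled tissues held their own markers, with mean log2 CPM over libraries of 8.32 to 8.95 for 6 astrocyte markers in the dorsal horn and 8.90 to 9.99 for 9 epithelial markers in the colon. Of 14 markers of dorsal root ganglion neurons, sensory neurons whose cell bodies lie outside the cord, the mean log2 CPM was 6.11 to 6.83 in the nivolumab dorsal horn libraries. It was 5.27 in cancer 3 and 5.15 in sham 3, against 0.87 to 1.29 in the other 4 libraries. Dorsal horn results are therefore also given without cancer 3 and sham 3 where this changed a call. In that fit all 3 nivolumab libraries are high in these markers and the other 4 low. Nivolumab and ganglion content cannot be told apart there.

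Levels were compared between genes per kilobase of exon. In the dorsal horn the median over 9 libraries was 33.0 CPM per kb for C1qa, 31.4 for C1qb, 14.7 for C1qc, 13.2 for C4b, 9.35 for C3, 8.55 for Serping1, 1.33 for Cfb, 0.422 for C3ar1 and 0.380 for C5ar1. C1qa and C1qb, at 23.4 CPM per kb or more in every library, were thus the most abundant of the set in the cord, and the receptors had the lowest medians. C4b was above C1qc in all 3 cancer libraries, with means of 17.8 and 12.7 CPM per kb there. The ranges over libraries of neighbours in this order overlapped, with 3 exceptions. C1qb, at 23.4 to 38.3 CPM per kb, lay above C1qc, at 10.7 to 17.4, Serping1, at 2.17 to 16.6 CPM per kb, lay above Cfb, at 0.971 to 1.93, and Cfb lay above C3ar1, at 0.342 to 0.678. In the colon Cfb came first at 61.3 CPM per kb, followed by C1qa at 52.0, C3 at 47.8, C1qb at 45.3, Serping1 at 44.6, C1qc at 21.6, C4b at 19.5, C5ar1 at 2.54 and C3ar1 at 1.71. All neighbours in the colon order overlapped in their ranges, except that C4b, at 11.02 to 39.6 CPM per kb, lay above C5ar1, at 0.464 to 4.63.

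In the dorsal horn 2 of the 9 genes fell in nivolumab libraries relative to cancer libraries, and none rose. They were C4b, which averaged 69.7 ± 2.48 CPM with nivolumab and 102 ± 14.9 CPM in cancer, and Cfb, which averaged 3.02 ± 0.295 and 4.92 ± 0.786 CPM in the same groups (SD, n = 3 each). In this comparison 17.2% of 13609 genes passed an adjusted p of 0.05 by edgeR's quasi-likelihood test, and 8.6% of all genes did so as lower, so a count of 2 in 9 is no result about this set. With the replicate number as a block 5 of the 9 passed, as did 22.5% of all genes. At an unadjusted p under 0.05 there were 4 of the 9, against 34.2% of all genes. Groups did not overlap for 1 higher and 3 lower members, against 40.1% of all genes, 20.6% higher and 19.5% lower. The median log2 fold change was 0.14 over the 9 genes and 0.00 over all genes tested. Against sham, 0 of the 9 passed in nivolumab libraries, where 8.51% of all genes did, 4.67% as higher and 3.84% as lower, and 2 of 9 had an unadjusted p under 0.05, against 26.1% of all genes. Groups did not overlap there for 1 higher and 2 lower members, against 35.2% of all genes, 17.1% higher and 18.1% lower. For cancer against sham 0 of 9 passed, where 0.323% of all genes did, 0.0955% as higher and 0.228% as lower. Of the 9, 3 had an unadjusted p under 0.05, against 13.1% of all genes, and 3 passed by DESeq2, where 2.69% of all genes did. Groups did not overlap for 1 higher and 2 lower members, against 16.8% of all genes, 8.46% higher and 8.34% lower. The median over the 9 genes was −0.27 with nivolumab against sham and −0.32 in cancer against sham. The nivolumab and cancer comparisons share libraries with each other, so their values are set side by side and not counted as separate evidence. In bulk tissue, fewer cells of a type and less RNA per cell cannot be told apart.

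**Figure D1:**
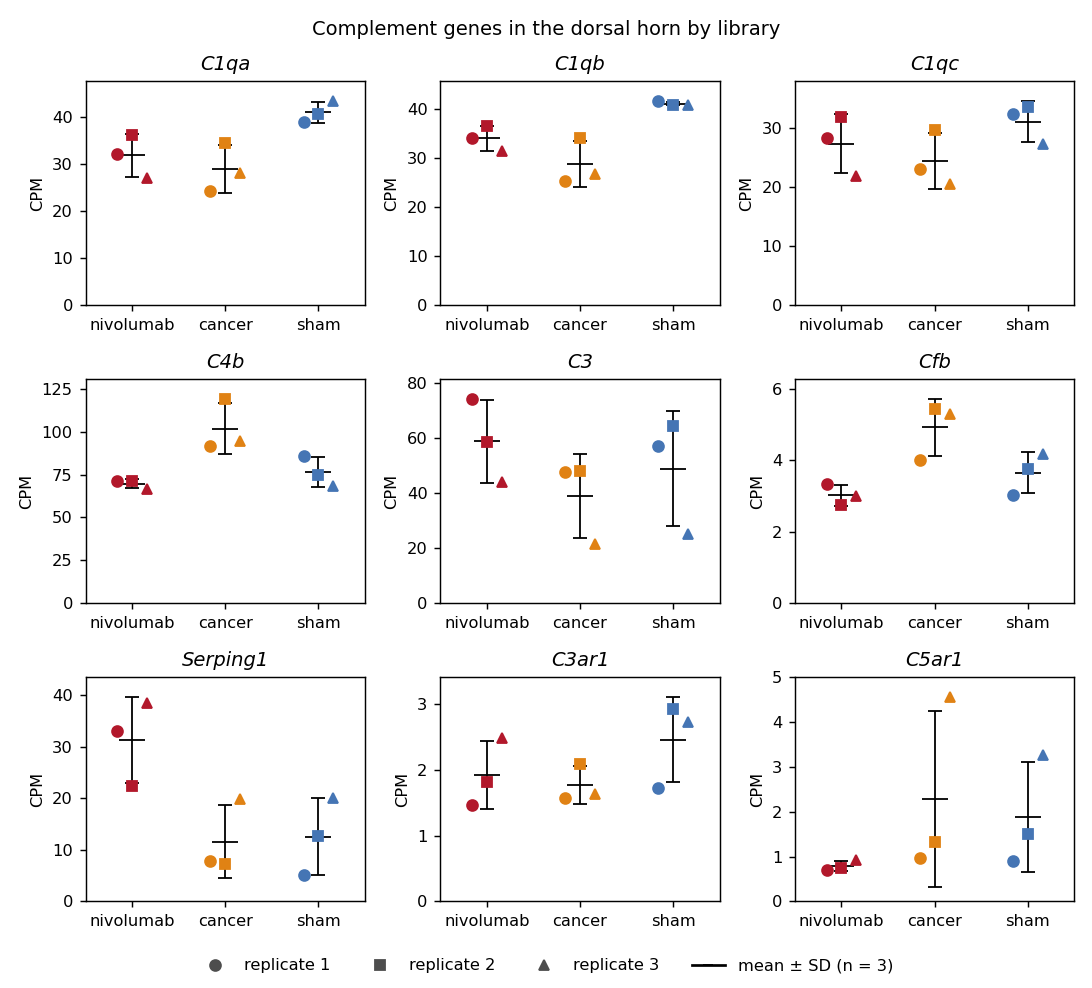
CPM of each complement gene in the 9 dorsal horn libraries, with nivolumab, cancer and sham from left to right, replicates as symbols and bars at the mean ± SD (n = 3). C4b and Cfb sit lower in all 3 nivolumab libraries than in the 3 cancer libraries, and C1qa and C1qb sit lower in both tumour groups than in sham.

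C1qa, C1qb and C1qc encode the 3 chains of C1q, the recognition molecule of the classical pathway. They lie side by side on the minus strand of chromosome 4 within 18675 bp (GRCm38, 136880129 to 136898803, GENCODE M21), with C1qb at 136880129 to 136886187, C1qc at 136889804 to 136893065 and C1qa at 136895917 to 136898803. The stretches around the starts of C1qb and C1qc are shown, since that of C1qa was not held in the promoter source used here. Each runs from 250 bases before to 50 bases after the RefSeq start (GRCm38.p6), on the minus strand, with the bases from the start onward in capitals. C1qb lies at chr4:136886151-136886450 and C1qc at chr4:136892865-136893164, and this pair was chosen after the values were seen. The GENCODE gene of C1qc begins at 136893065, inside its window and before the RefSeq start. Part of the lower-case stretch of C1qc thus lies within that annotated gene.
C1qb: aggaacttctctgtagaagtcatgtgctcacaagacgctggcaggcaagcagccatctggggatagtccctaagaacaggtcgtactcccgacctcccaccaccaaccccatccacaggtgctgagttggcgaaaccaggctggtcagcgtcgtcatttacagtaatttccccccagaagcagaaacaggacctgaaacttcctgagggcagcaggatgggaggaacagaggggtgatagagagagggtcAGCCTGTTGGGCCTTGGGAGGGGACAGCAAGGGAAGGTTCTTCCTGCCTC
C1qc: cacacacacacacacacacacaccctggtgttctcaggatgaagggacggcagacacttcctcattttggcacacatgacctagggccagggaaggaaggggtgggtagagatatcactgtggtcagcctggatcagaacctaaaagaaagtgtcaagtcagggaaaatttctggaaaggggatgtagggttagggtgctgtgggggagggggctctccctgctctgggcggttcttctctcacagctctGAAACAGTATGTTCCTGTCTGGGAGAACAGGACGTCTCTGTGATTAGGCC

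In the dorsal horn C1qa stood at 32.2, 36.2 and 27.1 CPM with nivolumab, 24.4, 34.4 and 28.1 CPM in cancer and 39.0, 40.6 and 43.3 CPM in sham. C1qb stood at 34.2, 36.6 and 31.5 CPM with nivolumab, 25.5, 34.1 and 26.9 CPM in cancer and 41.6, 41.0 and 40.9 CPM in sham. For both genes all 6 libraries from tumour-bearing mice lay below all 3 sham libraries, while nivolumab and cancer overlapped. Over all genes, 8.34% were lower than sham without overlap in cancer and 18.1% with nivolumab. The share lower in both groups at once was not counted. C1qa and C1qb varied together (Pearson's r 0.95 over the 9 libraries), so they are not separate observations. The log2 fold change in cancer against sham was −0.52 for C1qb (SE 0.11, adjusted p = 0.0857) and −0.50 for C1qa (SE 0.14, adjusted p = 0.168), neither past the threshold. With nivolumab against sham it was −0.27 for C1qb (SE 0.11, adjusted p = 0.146) and −0.36 for C1qa (SE 0.13, adjusted p = 0.124). With nivolumab against cancer it was 0.24 for C1qb (SE 0.11, adjusted p = 0.148) and 0.14 for C1qa (SE 0.14, adjusted p = 0.501).

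The C1qb difference between cancer and sham did pass in some other fits. Its adjusted p was 0.00398 by DESeq2, 0.0262 with the ganglion markers as a covariate and 0.0277 without cancer 2. The C1qb difference between nivolumab and cancer also passed without cancer 2 (log2 fold change 0.38, adjusted p = 0.0297). DESeq2 called C1qa too in cancer against sham (adjusted p = 0.0376). C1qc stood at 28.3, 31.9 and 22.0 CPM with nivolumab, 23.1, 29.8 and 20.6 CPM in cancer and 32.5, 33.7 and 27.3 CPM in sham, and all 3 groups overlapped. Its log2 fold change was −0.35 in cancer against sham (SE 0.17, adjusted p = 0.418), −0.18 with nivolumab against sham (SE 0.17, adjusted p = 0.529) and 0.16 with nivolumab against cancer (SE 0.17, adjusted p = 0.529).

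A list of 10 microglial markers, among them Tmem119, P2ry12 and Cx3cr1, was set beside C1q. Their mean log2 CPM was 4.02 to 4.33 with nivolumab, 3.19 to 4.10 in cancer and 3.31 to 4.42 in sham, and no marker was at 0 in any library. Their summed level was 273.9 to 337 CPM with nivolumab, 198 to 291 CPM in cancer and 212 to 358 CPM in sham. In cancer against sham 0 of the 10 passed and 0 had a positive fold change (median −0.27), and with nivolumab against cancer 1 of the 10 rose, where 8.63% of all genes did (median 0.38). The markers were lowest in cancer 3 and sham 3, at 3.19 and 3.31, where C1qc was also the lowest of its group, at 20.6 and 27.3 CPM, while C1qa was the highest of the sham group in sham 3. Libraries also differed in 5 red blood cell markers, with means of 3.86 to 4.38 log2 CPM with nivolumab, 2.99 to 4.15 in cancer and 5.67 to 6.72 in sham. Of these, 4 fell in cancer against sham, where 0.228% of all genes did. All 5 fell with nivolumab against sham, where 3.84% of all genes did. The part of microglial or blood content in the C1q values was not tested.

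C4b encodes complement C4, which the C1 complex cleaves to continue the classical pathway. It lies on chromosome 17 (GRCm38, 34728380 to 34743882, minus strand). In the dorsal horn it stood at 71.1, 71.1 and 66.8 CPM with nivolumab, 91.5, 119 and 94.5 CPM in cancer and 85.7, 75.0 and 68.5 CPM in sham. All 3 cancer libraries were above the other 6, and nivolumab overlapped sham. With nivolumab against cancer C4b fell, with a log2 fold change of −0.54 (SE 0.11, fold 0.686, adjusted p = 0.0115). The call was kept in 16 of 17 alternatives and was lost with the ganglion markers as a covariate (−0.34, adjusted p = 0.0776), a score that was higher in all 3 nivolumab libraries than in the other 6. In cancer against sham, with the same cancer libraries, the log2 fold change was 0.41 (SE 0.11, adjusted p = 0.167), which passed by DESeq2 (adjusted p = 0.0276) and with the covariate (adjusted p = 0.0343). With nivolumab against sham it was −0.13 (SE 0.11, adjusted p = 0.488).

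Reads of C4b can be confused with those of its neighbour C4a, a close copy. Their transcripts were 96.1% identical over 5367 aligned bases, with an identical run of up to 433 bases, and 16.5% of the 100-base windows of C4b occur in C4a without a change. How reads from such windows were counted is not known, so the counts of both genes are uncertain, by an amount that was not measured. The 60-base stretch in which they differ most, by 13 bases, shows what separates the copies, with the differing bases in capitals (GENCODE M21 transcripts, bases 2761 to 2820 of C4b and 2755 to 2814 of C4a, 5' to 3').
C4b: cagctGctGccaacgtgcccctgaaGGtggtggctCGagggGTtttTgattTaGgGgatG
C4a: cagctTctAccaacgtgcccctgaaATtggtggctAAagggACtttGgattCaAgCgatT

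In the dorsal horn C4a ranged from 3.48 to 4.85 CPM with nivolumab, 5.08 to 5.29 CPM in cancer and 3.53 to 4.73 CPM in sham. Like C4b, C4a was higher in all 3 cancer libraries than in the other 6. C4b stood far above C4a, at 66.8 to 119 CPM in these libraries, so the C4a values may include C4b reads. This was not tested. C4a did not pass in any comparison (log2 fold change −0.29 with nivolumab against cancer, SE 0.18, adjusted p = 0.289, and 0.30 in cancer against sham, SE 0.18, adjusted p = 0.526).

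C3 encodes the component on which all pathways converge (chromosome 17, 57203970 to 57228136, minus strand). It stood at 74.0, 58.5 and 43.9 CPM with nivolumab, 47.7, 48.1 and 21.5 CPM in cancer and 57.3, 64.4 and 25.1 CPM in sham. In the cancer and sham groups replicate 3 was the lowest by a wide margin, and the groups overlapped. No C3 comparison passed in the fit without a block, with log2 fold changes of 0.59 with nivolumab against cancer (SE 0.44, adjusted p = 0.384), 0.26 with nivolumab against sham (SE 0.44, adjusted p = 0.752) and −0.32 in cancer against sham (SE 0.44, adjusted p = 0.806). With the replicate number as a block C3 passed with nivolumab against cancer (0.66, adjusted p = 0.0276). With the ganglion markers as a covariate C3 passed in both nivolumab comparisons (1.85 against cancer, adjusted p = 0.00235, and 1.57 against sham, adjusted p = 0.00807). Without cancer 3 and sham 3 it did not, at 0.30 (adjusted p = 0.357) and −0.03 (adjusted p = 0.953). Within groups the ganglion score set mainly cancer 3 and sham 3 apart, the libraries lowest in C3. The covariate values of C3 therefore rest largely on these libraries.

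Cfb encodes factor B, the protease of the alternative pathway (chromosome 17, 34856374 to 34862518, minus strand). It stood at 3.33, 2.74 and 3.00 CPM with nivolumab, 4.02, 5.44 and 5.30 CPM in cancer and 3.04, 3.75 and 4.17 CPM in sham. All 3 nivolumab libraries lay below all 3 cancer libraries, and sham overlapped both groups. Counts were 77 to 81 per nivolumab library and 115 to 143 per cancer library. With nivolumab against cancer Cfb fell, with a log2 fold change of −0.70 (SE 0.20, fold 0.615, adjusted p = 0.0409). This call was lost in 8 of 17 alternatives, which were the fit of 6 libraries (adjusted p = 0.0552), leaving out any of sham 2, cancer 2, cancer 3, nivolumab 1, nivolumab 2 or nivolumab 3 (adjusted p = 0.0579, 0.123, 0.103, 0.0908, 0.112 and 0.116) and leaving out cancer 3 and sham 3 together (−0.64, adjusted p = 0.0807). Cancer against sham gave 0.43 (SE 0.20, adjusted p = 0.398), and with nivolumab against sham −0.27 (SE 0.20, adjusted p = 0.429). Cfb shares 2246 of its 2825 exon bases with Gm20547, a read-through gene on the same strand, so its counts are uncertain.

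Serping1 encodes C1 inhibitor, which blocks the proteases that C1q activates (chromosome 2, 84765387 to 84775444, minus strand). Its dorsal horn values were 33.1, 22.3 and 38.6 CPM with nivolumab, 7.75, 7.23 and 19.9 CPM in cancer and 5.06, 12.7 and 20.0 CPM in sham. All 3 nivolumab libraries were above the other 6, and replicate 3 was the highest of the cancer and sham groups. The log2 fold change was 1.44 with nivolumab against cancer (SE 0.57, adjusted p = 0.127) and 1.31 with nivolumab against sham (SE 0.57, adjusted p = 0.201), neither past the threshold. With the replicate number as a block the value against cancer passed (1.58, adjusted p = 0.0404). It was −0.12 in cancer against sham (SE 0.57, adjusted p = 0.950). Groups that did not overlap, with nivolumab higher, were found for 20.6% of all genes against cancer and 17.1% against sham.

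Serping1 was highest in the libraries that held ganglion transcripts. The 5 libraries with ganglion markers at 5.15 log2 CPM or above held 19.9 CPM of Serping1 or more, and the other 4 held 12.7 CPM or less. Schwann cell markers had means of 6.76 to 6.99 log2 CPM with nivolumab, 4.65 to 5.44 in cancer and 5.29 to 6.38 in sham. Fibroblast and meningeal markers had 3.82 to 4.24 with nivolumab, 2.77 to 3.55 in cancer and 2.88 to 3.68 in sham. Their summed level was not higher with nivolumab, at 706 to 868 CPM, against 828 to 1764 CPM in cancer and 1127 to 2863 CPM in sham. The Schwann cell markers summed to 13022 to 15318 CPM with nivolumab, 4559 to 8593 CPM in cancer and 9329 to 15851 CPM in sham. With the ganglion markers as a covariate the log2 fold change of Serping1 with nivolumab against cancer was 0.27 (adjusted p = 0.698). Without cancer 3 and sham 3 it was 2.06, and it passed (adjusted p = 0.0274). In that fit all nivolumab libraries were high in ganglion markers and all others low, so nivolumab and ganglion content cannot be told apart. Beyond these fits, the part of ganglion or nerve tissue in the Serping1 values was not tested.

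**Figure D2:**
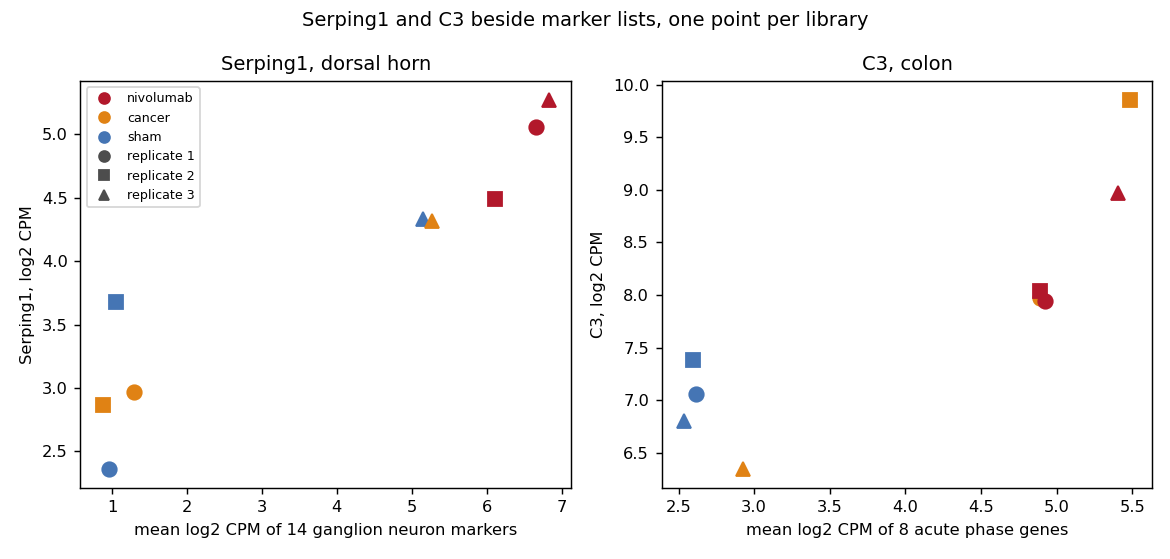
Left, Serping1 (log2 CPM) against the mean log2 CPM of 14 ganglion neuron markers in the 9 dorsal horn libraries. Right, C3 (log2 CPM) against the mean log2 CPM of 8 acute phase and NF-kB response genes in the 9 colon libraries. Colours are groups and symbols are replicates. Sham 3 and cancer 3 sit with the nivolumab libraries on the left axis, and colon cancer 3 sits with the sham libraries on the right.

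The receptors had the lowest CPM per kb of the set in the dorsal horn. C3ar1 encodes the receptor of C3a (chromosome 6, 122847138 to 122856161, minus strand). It stood at 1.47, 1.82 and 2.48 CPM with nivolumab, 1.57, 2.09 and 1.63 CPM in cancer and 1.73, 2.92 and 2.73 CPM in sham, with overlap among all groups. Its log2 fold change was 0.12 with nivolumab against cancer (SE 0.30, adjusted p = 0.796), −0.35 with nivolumab against sham (SE 0.30, adjusted p = 0.491) and −0.48 in cancer against sham (SE 0.30, adjusted p = 0.538).

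C5ar1 encodes the main receptor of C5a (chromosome 7, 16246743 to 16259540, minus strand). It stood at 0.692, 0.754 and 0.925 CPM with nivolumab, 0.978, 1.33 and 4.55 CPM in cancer and 0.904, 1.498 and 3.26 CPM in sham. The nivolumab libraries, with 16 to 25 counts each, lay below all cancer libraries and overlapped sham. The log2 fold change was −1.51 with nivolumab against cancer (SE 0.65, adjusted p = 0.135) and −1.25 with nivolumab against sham (SE 0.65, adjusted p = 0.260). With the replicate number as a block the value against cancer passed (−1.25, adjusted p = 0.0499). Both values without the block rest in large part on replicate 3 of the cancer and sham groups, and without these libraries they were −0.54 (adjusted p = 0.381) and −0.58 (adjusted p = 0.423). Cancer against sham gave a log2 fold change of 0.26 (SE 0.62, adjusted p = 0.895).

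Monocyte and neutrophil markers were set beside C5ar1, a receptor those cells carry. Of 8 such markers the summed level was 17.7 to 44.2 CPM with nivolumab, 20.9 to 207 CPM in cancer and 15.8 to 116 CPM in sham, with the highest sums in cancer 3 and sham 3, where C5ar1 was also highest. Of the 8, 1 was at 0 in sham 2, and none in the other libraries. Their part in the C5ar1 values was not tested. With the ganglion markers as a covariate C5ar1 passed in both nivolumab comparisons (−2.87 against cancer, adjusted p = 0.00111, and −2.75 against sham, adjusted p = 0.00308). These values rest largely on cancer 3 and sham 3, which the ganglion score set apart within their groups.

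**Figure D3:**
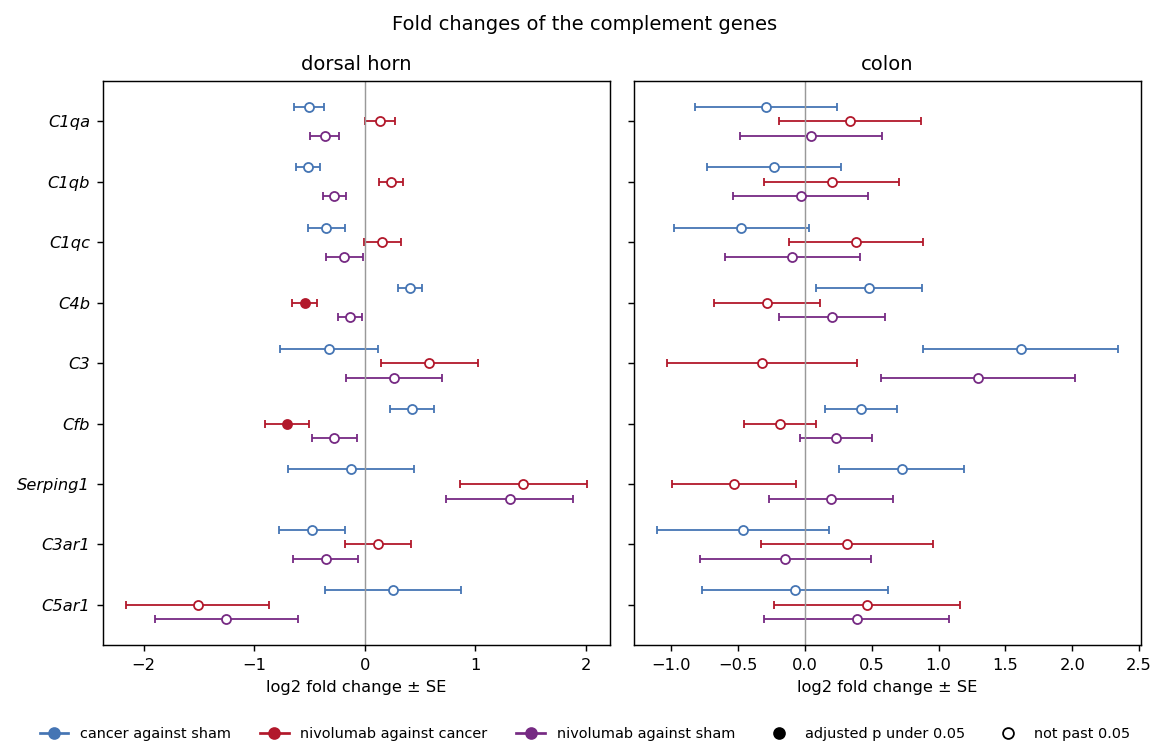
Log2 fold changes with standard errors of the 9 complement genes in the dorsal horn (left) and colon (right), in 3 comparisons each. Filled points have an adjusted p under 0.05. These are C4b (−0.54) and Cfb (−0.70) with nivolumab against cancer in the dorsal horn, and no point is filled in the colon, where the bars are wider.

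Genes that respond to interferon, to which several complement genes are known to respond, were set beside these values. Of 12 listed, 11 rose in the dorsal horn with nivolumab against cancer (median log2 fold change 1.37), where 8.63% of all genes did. Against sham 9 rose (median 1.06), where 4.67% of all genes did, while 0 passed in cancer against sham (median 0.07). The list was chosen with earlier results of these data known. Oasl2, an antiviral protein, averaged 36.8 ± 7.10 CPM with nivolumab and 8.11 ± 2.41 CPM in cancer (2.18, adjusted p = 0.00149). Ifit1, another antiviral gene, averaged 20.002 ± 6.27 and 3.34 ± 0.944 CPM in these groups (2.58, adjusted p = 0.00171), and Stat2, a transcription factor of the pathway, 64.2 ± 6.81 and 40.2 ± 2.30 CPM (0.68, adjusted p = 0.00216; SD, n = 3 each). The same 3 genes led against sham, with log2 fold changes of 2.30, 2.98 and 0.75 (adjusted p = 0.00365, 0.0038 and 0.00442). Of the 9 complement genes, C4b and Cfb were lower and the others did not pass in the same comparison.

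Of 10 acute phase and NF-kB response genes 6 were tested in the dorsal horn. With nivolumab against cancer 2 of them fell (median −1.56), where 8.6% of all genes did, and 0 passed in the other comparisons. Lrg1, a secreted acute phase protein, averaged 1.08 ± 0.477 CPM with nivolumab and 10.6 ± 8.21 CPM in cancer (−3.28, adjusted p = 0.0140), and Lcn2, another, 2.97 ± 1.35 and 29.0 ± 22.8 CPM (−3.28, adjusted p = 0.0491; SD, n = 3 each). Cancer libraries varied widely in both genes. Lrg1 also led against sham (−2.50, adjusted p = 0.0503), and Il1b, an inflammatory cytokine, led in cancer against sham (1.54, adjusted p = 0.483).

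Of 52 other complement genes, 27 were tested in the dorsal horn. With nivolumab against cancer 0 rose and 3 fell, where 8.6% of all genes fell, with a median log2 fold change of 0.01 over the 27. Lrp1, a scavenger receptor that can bind complement proteins, ranged from 474 to 574 CPM with nivolumab, 665 to 757 CPM in cancer and 623 to 729 CPM in sham. It fell against cancer (−0.45, SE 0.09, adjusted p = 0.00965) and against sham (−0.37, SE 0.09, adjusted p = 0.0304). Susd4, a complement regulator, ranged from 139 to 151 CPM with nivolumab, 162 to 189.7 CPM in cancer and 168 to 191 CPM in sham. It too fell against cancer (−0.32, SE 0.08, adjusted p = 0.0220) and against sham (−0.30, SE 0.08, adjusted p = 0.0423). For both genes the nivolumab libraries lay below all others.

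Masp2, a protease of the lectin pathway, ranged from 0.555 to 0.822 CPM with nivolumab, 1.89 to 6.36 CPM in cancer and 0.152 to 0.552 CPM in sham. Cancer libraries were above all others, and Masp2 fell with nivolumab against cancer (−2.28, SE 0.55, adjusted p = 0.0214). In cancer against sham it had the smallest p of the 27, without passing (3.13, SE 0.58, adjusted p = 0.0586), followed by Clu, clusterin (−0.19, SE 0.06, adjusted p = 0.225). Masp2 shares 1817 of its 3307 exon bases with Tardbp on the other strand. The strand setting is not known, so reads from the shared bases may have been counted for either gene. Tardbp stood at 167 to 179 CPM with nivolumab, 181 to 184 CPM in cancer and 177 to 181 CPM in sham, and did not pass.

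Against sham 3 of the 27 fell with nivolumab, where 3.84% of all genes did, and 0 rose (median −0.05), among them Lrp1 and Susd4. The calls named here were lost in some alternatives. Masp2 was lost without cancer 2 or without any nivolumab replicate (adjusted p = 0.0552 to 0.0863) and with the ganglion covariate (−1.09, adjusted p = 0.242), and Susd4 against cancer without cancer 2, cancer 3, nivolumab 1 or nivolumab 2 (adjusted p = 0.0706 to 0.0992). Against sham, Lrp1 was lost without sham 1, sham 2, nivolumab 1 or nivolumab 3 (adjusted p = 0.0832 to 0.138) and with the covariate (−0.23, adjusted p = 0.167). Susd4 against sham was lost without any library but cancer 1, without cancer 3 and sham 3 together and with upper-quartile scaling (adjusted p = 0.0511 to 0.188). Lrp1 against cancer was lost with the ganglion covariate alone (−0.30, adjusted p = 0.0566).

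In the colon none of the 9 complement genes passed in any comparison, and neither did any other gene by edgeR, with 0% of 13445 genes called in each of the 3. DESeq2 called 186 genes (1.38%) for nivolumab against cancer, 144 (1.07%) for nivolumab against sham and 384 (2.86%) for cancer against sham, and 0 of the 9 in each. At an unadjusted p under 0.05 the 9 genes gave 0 in each comparison, against 9.84% of all genes for nivolumab against cancer, 6.45% for nivolumab against sham and 10.9% for cancer against sham. Groups did not overlap for 2 members, both higher with nivolumab against sham, against 14.9% of all genes, 8.81% higher and 6.11% lower. For nivolumab against cancer it was 0 members, against 15.2% of all genes, 7.99% higher and 7.16% lower, and for cancer against sham 0 members, against 19.3%, 6.96% higher and 12.3% lower. The spread between colon libraries was wide, with a biological coefficient of variation of 0.376, against 0.170 in the dorsal horn. C3 had the largest fold changes of the set, at 1.61 in cancer and 1.29 with nivolumab against sham on the log2 scale. Cancer 3 was the lowest of the 9 colon libraries for all 9 complement genes, whereas it was lowest for 10.2% of all genes tested. Cancer 2 was the highest for 4 of the 9, and for 24% of all genes. Colon values are therefore also given without cancer 2 or cancer 3 where that turned a direction. Colon libraries also differed in 8 smooth muscle markers, summed to 2815 to 4386 CPM with nivolumab, 6380 to 22568 in cancer and 1326 to 20142 in sham. The sum was highest in cancer 3. With nivolumab against cancer all 8 markers were lower without overlap, against 7.16% of all genes. The part of muscle content in the complement values was not tested.

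**Figure D4:**
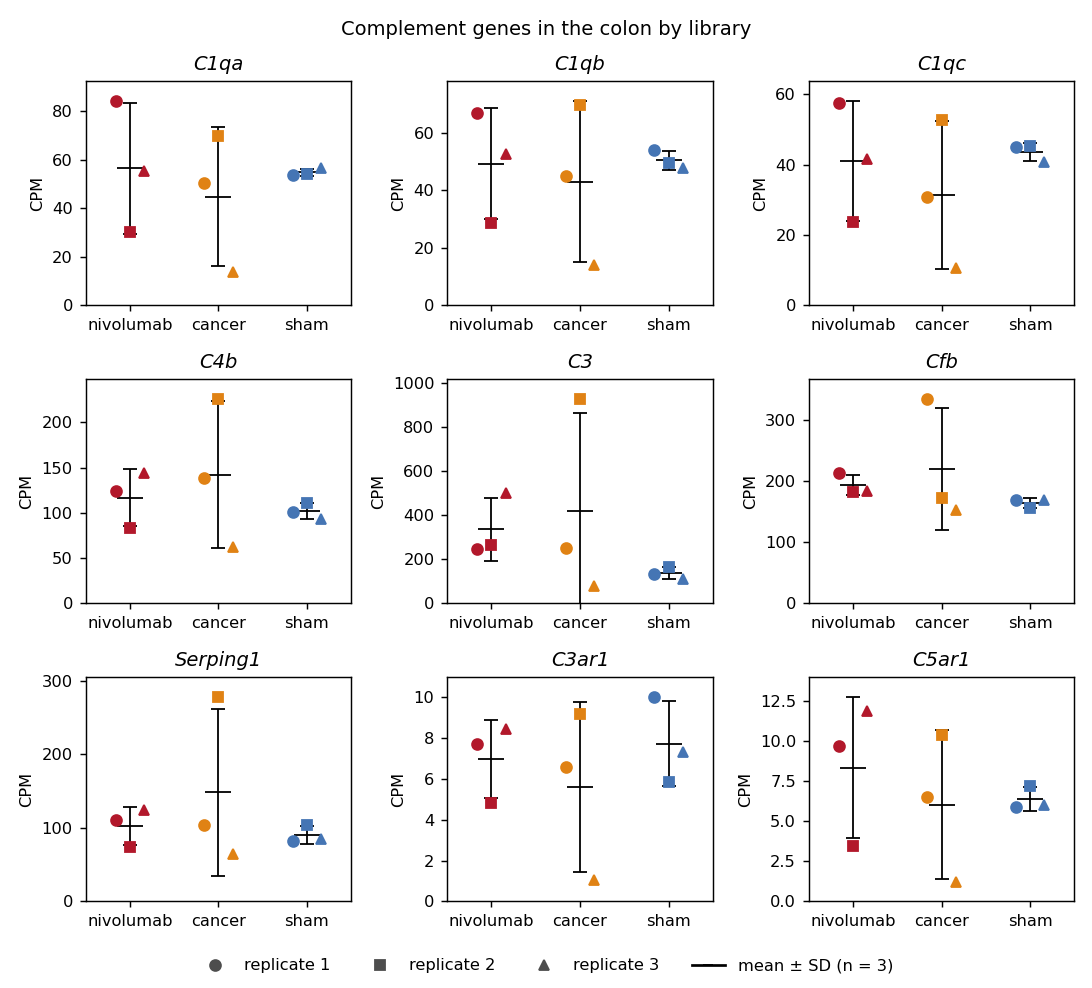
CPM of each complement gene in the 9 colon libraries, with nivolumab, cancer and sham from left to right, replicates as symbols and bars at the mean ± SD (n = 3). Cancer 3 is the lowest library in every panel, and C3 is higher in all 3 nivolumab libraries than in the sham libraries.

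The C1q chains varied together in the colon. C1qa stood at 83.9, 30.2 and 55.2 CPM with nivolumab, 50.4, 69.9 and 13.6 CPM in cancer and 53.7, 54.1 and 56.5 CPM in sham. C1qb stood at 66.8, 28.5 and 52.4 CPM with nivolumab, 45.0, 69.7 and 13.9 CPM in cancer and 54.1, 49.3 and 47.7 CPM in sham, and C1qc at 57.6, 23.6 and 41.8, at 30.9, 52.7 and 10.7 and at 45.0, 45.2 and 40.8 CPM in these groups. For each chain the sham libraries lay close together and inside the ranges of the nivolumab and cancer groups. Log2 fold changes ranged from −0.47 (C1qc, SE 0.50, adjusted p = 0.703) to −0.23 (C1qb, SE 0.50, adjusted p = 0.863) in cancer against sham. They were 0.20 to 0.38 with nivolumab against cancer, and −0.09 to 0.04 with nivolumab against sham. Without cancer 3 the cancer against sham value turned to 0.13 for C1qa and 0.19 for C1qb, and that of nivolumab against cancer turned to −0.09 for C1qa, −0.22 for C1qb and −0.03 for C1qc, while C1qc in cancer against sham was −0.07. Without cancer 2 the cancer against sham values were −0.76 for C1qa, −0.76 for C1qb and −1.05 for C1qc.

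C3ar1 and C5ar1, like the C1q chains, were lowest in cancer 3 and next lowest in nivolumab 2. C3ar1 stood at 7.70, 4.84 and 8.45 CPM with nivolumab, 6.60, 9.18 and 1.04 CPM in cancer and 10.004, 5.87 and 7.34 CPM in sham. C5ar1 stood at 9.67, 3.43 and 11.9 CPM with nivolumab, 6.52, 10.4 and 1.19 CPM in cancer and 5.89, 7.22 and 6.01 CPM in sham. All groups overlapped for both receptors, and no log2 fold change exceeded its SE (−0.46, SE 0.64, for C3ar1 in cancer against sham, and 0.46, SE 0.70, for C5ar1 with nivolumab against cancer). Without cancer 3 the cancer against sham value turned to 0.03 for C3ar1 and 0.41 for C5ar1, and that of nivolumab against cancer to −0.17 and −0.02. Without cancer 2 the values of C5ar1 were −0.70 in cancer against sham and 1.08 with nivolumab against cancer, and those of C3ar1 were −1.01 and 0.84. Across the 9 libraries Pearson's r was 0.98 to 0.99 among the C1q chains, 0.92 to 0.96 between chains and receptors and 0.91 between the receptors, as a description of libraries that share tissue composition. The 10 macrophage markers, among them Adgre1, Cd68 and Mrc1, had means of 3.20 to 4.18 log2 CPM with nivolumab, 2.42 to 4.18 in cancer and 3.64 to 3.74 in sham, lowest in cancer 3, and no marker was at 0 in any library. Their summed level was 173 to 254 CPM with nivolumab, 127 to 257 CPM in cancer and 162 to 180.0 CPM in sham. The part of macrophage content was not tested.

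C4b stood at 124, 82.8 and 144 CPM with nivolumab, 138, 225 and 62.8 CPM in cancer and 101, 111 and 93.6 CPM in sham. The groups overlapped, and the log2 fold changes were −0.28 with nivolumab against cancer (SE 0.40, adjusted p = 0.773), 0.20 with nivolumab against sham (SE 0.40, adjusted p = 0.994) and 0.48 in cancer against sham (SE 0.40, adjusted p = 0.640). Without cancer 2 they were 0.19 with nivolumab against cancer and −0.002 in cancer against sham. Serping1 showed the same highest and lowest libraries, at 110.1, 74.0 and 124 CPM with nivolumab, 104, 277 and 64.1 CPM in cancer and 81.4, 104 and 84.4 CPM in sham. Its groups overlapped too, with log2 fold changes of −0.53 with nivolumab against cancer (SE 0.47, adjusted p = 0.657), 0.19 with nivolumab against sham (SE 0.47, adjusted p = 0.996) and 0.72 in cancer against sham (SE 0.47, adjusted p = 0.579). Without cancer 2 they were 0.26 with nivolumab against cancer and −0.08 in cancer against sham.

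C3 stood at 246, 263 and 501 CPM with nivolumab, 251, 928 and 81.2 CPM in cancer and 133, 167 and 112 CPM in sham. All 3 nivolumab libraries were above all 3 sham libraries, and cancer spanned the whole range. The log2 fold change was 1.29 with nivolumab against sham (SE 0.72, adjusted p = 0.835), 1.61 in cancer against sham (SE 0.73, adjusted p = 0.470) and −0.32 with nivolumab against cancer (SE 0.71, adjusted p = 0.857). Without cancer 2 the cancer against sham value was 0.29 and that of nivolumab against cancer 0.99, and without cancer 3 they were 2.10 and −0.80. None of these passed.

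Cfb stood at 213, 183 and 185 CPM with nivolumab, 334, 173 and 153 CPM in cancer and 169, 156 and 169 CPM in sham. Nivolumab libraries were above all sham libraries, by a small margin, and cancer 1 was apart from the rest. The log2 fold change was 0.23 with nivolumab against sham (SE 0.27, adjusted p = 0.969), 0.42 in cancer against sham (SE 0.27, adjusted p = 0.578) and −0.19 with nivolumab against cancer (SE 0.27, adjusted p = 0.779). Without cancer 1 the cancer against sham value was 0.002 and that of nivolumab against cancer 0.22.

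Acute phase and NF-kB response genes were set beside C3 in the colon, since C3 is itself an acute phase protein. The mean log2 CPM of 8 such genes was 4.89 to 5.41 with nivolumab, 2.93 to 5.49 in cancer and 2.54 to 2.61 in sham. Cancer 3, the library lowest in C3, was also the lowest of its group for these genes. In cancer against sham 0 of the 8 passed and 7 had an unadjusted p under 0.05 (median log2 fold change 2.02), against 10.9% of all genes. With nivolumab against sham 0 passed and 7 had an unadjusted p under 0.05 (median 1.88), against 6.45% of all genes. Tnf, an inflammatory cytokine, had the smallest p in each comparison, with 16.3 ± 5.13 CPM with nivolumab, 23.9 ± 6.25 CPM in cancer and 5.57 ± 0.0929 CPM in sham (SD, n = 3 each). Its log2 fold change was 1.55 with nivolumab against sham (adjusted p = 0.322), 2.10 in cancer against sham (adjusted p = 0.0748) and −0.56 with nivolumab against cancer (adjusted p = 0.526). Of 8 monocyte and neutrophil markers the mean was 1.97 to 4.42 log2 CPM with nivolumab, 0.25 to 3.82 in cancer and −1.21 to 0.05 in sham, with 1 at 0 in cancer 3 and 1, 4 and 6 at 0 in sham 1, 2 and 3. Their summed level was 1504 to 2055 CPM with nivolumab, 1726 to 2033 CPM in cancer and 1068 to 1452 CPM in sham. The sum was 1452 CPM in sham 3, where 6 of the 8 were at 0, so few of the markers set it. The part of these cells in the C3 values was not tested.

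Interferon response genes in the colon gave 0 of 12 past the threshold in each comparison, with medians of −0.28 with nivolumab against cancer, −0.20 with nivolumab against sham and 0.15 in cancer against sham. Gbp2, a guanylate-binding protein, led with nivolumab against cancer (−1.27, adjusted p = 0.474), Irf9 with nivolumab against sham (−0.23, adjusted p = 0.919) and Igtp in cancer against sham (0.59, adjusted p = 0.503). Of the other complement genes 30 were tested and 0 passed in each comparison, with medians of −0.17, 0.04 and 0.33 in the same order. Masp2 had 0 counts in all 3 nivolumab libraries, where a floor of 3 counts corresponds to 0.101 to 0.120 CPM, 0.777 to 1.74 CPM in cancer and 0 to 0.278 CPM in sham. It led with nivolumab against cancer (adjusted p = 0.379) and in cancer against sham (adjusted p = 0.397), with the same limit from Tardbp. Colec10, a collectin, came next with nivolumab against cancer, with 4.43 to 5.18 CPM and 18.6 to 61.0 CPM in these groups (−2.78, SE 0.99, adjusted p = 0.486). C2, the protease that pairs with C4, came next in cancer against sham (0.83, SE 0.36, adjusted p = 0.445) and was also second with nivolumab against sham (0.78, SE 0.36, adjusted p = 0.783). Cd55, an inhibitor of complement on cell surfaces, led there (−0.56, SE 0.23, adjusted p = 0.750). Like Cfb, C2 overlaps the read-through gene Gm20547 on the same strand, by 1656 of its 3872 exon bases, so its counts are uncertain.

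Whether the response differed between colon and cord was tested by an interaction term over all 18 libraries and 14164 genes. None of the 9 complement genes passed in any of the 3 comparisons, where 0.127% of all genes passed for nivolumab against cancer, 0.184% for nivolumab against sham and 0.155% for cancer against sham. Serping1 had the lowest p, since with nivolumab against cancer its log2 fold change was 2.05 higher in the dorsal horn than in the colon (SE 0.78, adjusted p = 0.220). C3 followed, with a cancer against sham value that was lower in the dorsal horn than in the colon (difference −1.998, SE 0.91, adjusted p = 0.450). These were the 2 unadjusted p-values under 0.05 among the members, and over all genes such values made up 16.4%, 12.7% and 10.9% of all genes in the comparisons in the order given. The fall of C4b and Cfb with nivolumab against cancer in the dorsal horn was not shown to differ from the colon (−0.19, SE 0.46, adjusted p = 0.863, and −0.46, SE 0.33, adjusted p = 0.487).

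Within the dorsal horn the members varied less together than in the colon. Pearson's r over the 9 libraries was 0.95 between C1qa and C1qb, 0.80 to 0.83 between these and C1qc, −0.69 between C4b and Serping1, 0.73 between C4b and Cfb and −0.90 between C3 and C5ar1. In the colon it was 0.95 between C4b and Serping1, 0.88 between C3 and C4b and 0.87 between C3 and Serping1. All are descriptions of 9 libraries that share groups and tissue composition.

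The genes most like the members were found by Pearson's r of log2 CPM over the 9 libraries of a tissue, with 13406 candidate genes for colon and 13573 for dorsal horn. In the colon the mean of the C1q chains was followed most closely by Batf3 (0.98), a transcription factor of dendritic cells, and by Mrc1 and Stab1 (0.97 each), a pair of macrophage receptors. C3 was followed by Gsap, Smim3 and Osmr (0.95 to 0.96), of which Osmr, the oncostatin M receptor, is in the acute phase list above. C4b was followed by Pirb, Emb and Cd33 (0.96 each) and Serping1 by Ccp110, Pim1 and Best1 (0.96 each). For the dorsal horn the C1q mean was followed by Fyn, Slc25a26 and Sspo (0.92 to 0.94), C3 by A2m, M6pr and Map4k5 (0.97 to 0.98), C4b by Spag6l, Adi1 and Aars2 (0.95 to 0.97) and Serping1 by Scn7a, Moxd1 and Tmem79 (0.97 to 0.98). These are descriptions of 9 libraries, with no test.

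Promoters of 5 of the 9 genes were held in the RefSeq table used here, those of C1qb, C1qc, C3, C3ar1 and C5ar1. Each 300-base window was searched on both strands for 4 motifs. None of the 5 held GAAA, any 2 bases and GAAA, the core of the interferon-stimulated response element, found in 3.44% of 32851 promoters. None held TTCNNNGAA, the gamma-activated site (8.3%), GGGA, any 2 bases and TTCC, a kappa B form (1.47%), or TTGCNNCAA, a C/EBP form (2.08%). No match says only that these letters are not in these windows.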

How the data were processed

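RNA-seq libraries of colon and spinal dorsal horn were made from 3 groups of mice, with 3 libraries per group and tissue. The authors deposited raw read counts per gene, 1 table per tissue. The submitters' processing notes name the GRCm38 build and the tools HISAT2, StringTie, Trimmomatic and FastQC 0.11.5. No source used here gives the counting tool, strand setting or annotation. Counts were tested with edgeR 4.0.16 (R 4.3.3), by quasi-likelihood on the 9 libraries of a tissue, with TMM scaling, filterByExpr (minimum count 10) and Benjamini-Hochberg adjustment over all genes tested, at 0.05. Log2 CPM used a prior count of 2. The scripts were tested on simulated counts. Alternatives were DESeq2 1.42.0, other scalings, no filter, 6 libraries, a replicate block, each library left out, cancer 3 and sham 3 left out, and the ganglion marker score as a covariate. Within groups that score differed mainly through cancer 3 and sham 3 of the dorsal horn. The members and lists were chosen with earlier results of these data known. Genes outside the set were named where they passed the threshold in a listed group or had the smallest p-values in it. No label says that replicate numbers pair libraries. Same-numbered deviations of the nivolumab and cancer dorsal horn libraries correlated at 0.19 to 0.28, and no other pair of groups met the bound of 0.1 in every pair. Differently numbered dorsal horn libraries of any groups reached 0.47, so whether the numbers mark pairs is not known. All libraries of a group differed by more than sampling noise (chi-square over degrees of freedom 9.62 or more). Gene positions are from GENCODE M21. The values of 1 other complement gene are not reported here.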

Additional observations from a re-analysis of the deposited data

How the results depend on the processing

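In the dorsal horn the count of complement genes that passed with nivolumab against cancer was 2, and 1 to 2 with a library left out. It was 5 with a replicate block (22.5% of all genes called, against 17.2%), which added C3 (0.66, adjusted p = 0.0276), Serping1 (1.58, adjusted p = 0.0404) and C5ar1 (−1.25, adjusted p = 0.0499). It was 3 with the ganglion covariate (22% of all genes) and 1 in the fit of 6 libraries (15.4%), where Cfb had an adjusted p of 0.0552. With nivolumab against sham the count was 0, and 2 with the covariate (15% of all genes, against 8.51%). In cancer against sham it was 0, then 3 by DESeq2 (2.69% of all genes), 1 with the block (C1qb, adjusted p = 0.0473; 0.845%), 2 with the covariate (2.72%) and 0 to 1 with a library left out. Whether replicate numbers mark pairs is not known. Outside the nivolumab and cancer dorsal horn libraries, no pair of groups had every same-numbered correlation at 0.1 or more. Correlations of same-numbered libraries ran from −0.44 to 0.46 in the colon, and 4 of 9 colon and 6 of 9 dorsal horn libraries correlated best with their own number. The block changed no other call of these genes. The colon and interaction counts were 0 under every alternative run.

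Some uncalled directions turned. The log2 fold change of C3 in the colon with nivolumab against cancer was 0.12 with the replicate block. Without cancer 3 and sham 3, C5ar1 in the dorsal horn was −0.039 in cancer against sham and C3 was −0.029 with nivolumab against sham. With the covariate C1qc was 0.17 and C4b 0.078 with nivolumab against sham. With a library left out, colon values in cancer against sham ran from −0.76 to 0.13 for C1qa, −0.76 to 0.19 for C1qb, −0.0019 to 0.84 for C4b, −0.079 to 1.08 for Serping1, −1.01 to 0.025 for C3ar1 and −0.70 to 0.41 for C5ar1. Colon values with nivolumab against cancer ran from −0.12 to 0.79 for C1qa, −0.22 to 0.71 for C1qb, −0.026 to 0.95 for C1qc, −0.80 to 0.99 for C3, −0.63 to 0.19 for C4b, −0.39 to 0.22 for Cfb, −0.89 to 0.26 for Serping1, −0.17 to 0.84 for C3ar1 and −0.020 to 1.08 for C5ar1. Colon values with nivolumab against sham ran from −0.42 to 0.33 for C1qa, −0.37 to 0.23 for C1qb, −0.48 to 0.17 for C1qc and −0.35 to 0.082 for C3ar1. In the dorsal horn they ran from −0.74 to 0.38 for Serping1 and −0.71 to 0.91 for C5ar1 in cancer against sham, −0.051 to 0.51 for C3 with nivolumab against sham and −0.10 to 0.28 for C3ar1 with nivolumab against cancer. The cause was not tested. Low counts limit the precision of C5ar1, C3ar1 and Cfb in the dorsal horn, and the wide spread between libraries that of all 9 genes in the colon.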
